A study of Tamarix ramosissima and Tamarix chinensis with 11 samples.

Results

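The genes described here are the 100 whose leaf transcript level varied least over 11 *Tamarix* (saltcedar) libraries of 2 species and 2 water treatments. They were chosen on CPM, the estimated count of a gene divided by the library total and multiplied by 1000000. Of 117867 assembled genes, 6386 had at least 20 CPM in every library. These were ranked by their coefficient of variation (CV, the SD over the 11 libraries divided by the mean), and the 100 lowest were taken. The libraries came from seedlings of *T. chinensis* from New Mexico and *T. ramosissima* from Montana, 14 weeks old when they entered chambers kept at 25 °C, and each library was made from the leaves of 1 plant. The groups were *T. chinensis* water deficit (n = 3), *T. chinensis* control (n = 2, because 1 sample was lost), *T. ramosissima* water deficit (n = 3) and *T. ramosissima* control (n = 3). Water was withheld until the leaves wilted, at day 10 in *T. chinensis* and day 17 in *T. ramosissima*, while controls stood in water. Species, seed origin and day of harvest differed together and cannot be told apart. No gene names come with the tables, so the genes carry their assembly identifiers, no function is given, and the labelled leaf tissue was not checked against marker genes.

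Every plant cell uses a core of genes for protein synthesis and turnover, the cytoskeleton and energy metabolism, and their transcripts are often the steadiest in a leaf. Genes of this kind serve as reference genes, against which the transcript level of a stress-responsive gene is measured in quantitative PCR. Drying to the wilting point closes stomata, slows photosynthesis and shifts transcription towards abscisic acid signalling, osmotic adjustment and protective proteins, so that a reference gene for drought work has to hold its level through a broad change of the transcriptome. Whether the 100 genes are of these classes was not examined, for lack of names.

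Library totals lay between 10245008 and 15655257 fragments. In the 10 pairs of same-group libraries the chi-square of a gene had a median of 2.18 to 8.61, where sampling noise alone gives 0.455, so none was a copy of another. One library stood apart: in *T. ramosissima* control replicate 1 the TMM factor was 0.831, against at least 0.931 in the other libraries, and the median gene at or above the floor was at 0.878 of its own mean. Leaf RNA comes from many cells, so fewer cells of a type and less RNA per cell cannot be told apart.

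The CV of the 100 genes lay between 4.17% and 8.35%, with a median of 7.42%, against a median of 23.0% and a maximum of 172% over the 6386 genes at or above the floor. These values chose the genes and are given as a description. The highest library was 1.14 to 1.38 times the lowest, with a median of 1.28, against a median of 2.09 over all genes at the floor. Of the 1100 single values, 925 (84.1%) were within 10% of the gene's own mean, against 33.5% of the values of all genes at the floor. The lowest single value was 0.802 and the highest 1.18 of the gene's mean. The ranking had no gap at its end. TRINITY_DN25890_c0_g1, the last gene taken, had a CV of 8.35% and a mean of 221 CPM, and TRINITY_DN29687_c5_g1, the first gene not taken, had a CV of 8.36% and a mean of 24.9 CPM.

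The 100 genes were not the most abundant transcripts. Their mean level ran between 23.0 and 404 CPM, with a median of 60.2 CPM, against 64.7 CPM over all genes at the floor, where the highest gene reached 22648 CPM. They spread over the range much as the other genes did: 36 were under 50 CPM, 35 between 50 and 100 CPM and 29 at 100 CPM or more, against 33.9%, 37.9% and 28.2% of all genes at the floor. Together they took 0.833% to 0.880% of a library's counts.

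**Figure D1:**
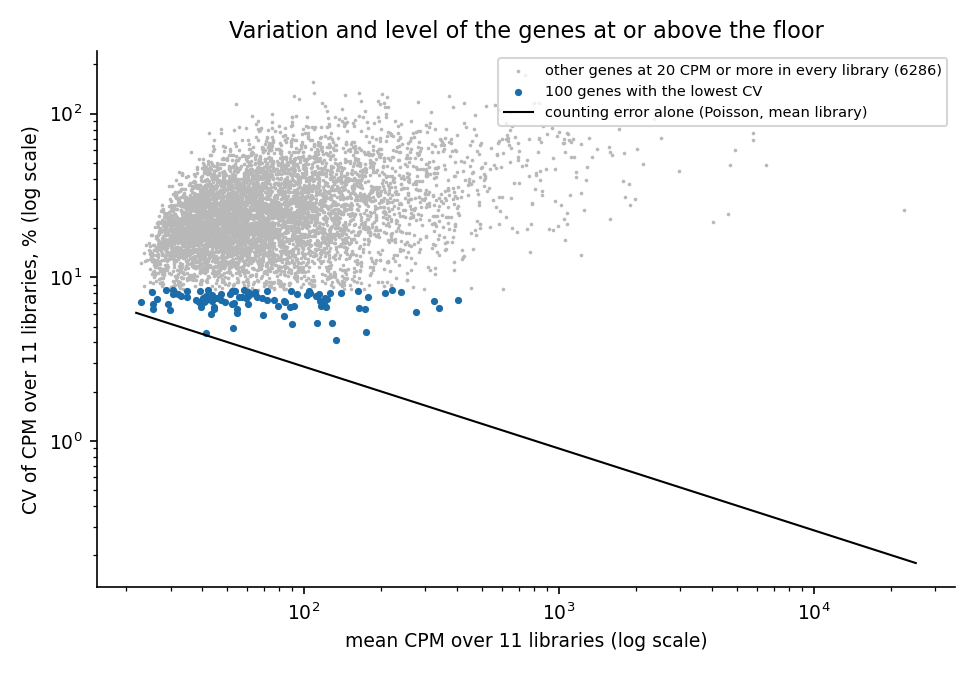
CV of CPM over the 11 libraries (vertical axis, %, log scale) against mean CPM (horizontal axis, log scale), with 1 point per gene: blue, the 100 genes with the lowest CV; grey, the other 6286 genes at 20 CPM or more in every library. The black line is the CV that Poisson counting error alone gives at the mean library total; the blue points form a band with an upper edge at 8.35%, from close to the line at low levels to well above it at the highest level of 404 CPM.

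Part of this small variation was counting error. A Poisson error at the gene's own mean count of 284 to 4981 fragments gave a CV of 1.42% to 5.93%, with a median of 3.67%. The observed CV was a median of 2.02 times that error, against 6.51 times over all genes at the floor. In 12 of the 100 genes it was under 1.5 times the counting error, and only 13 genes at the floor met that limit. At this depth a smaller true variation of such low genes could not be measured. The ratio was highest, at 5.10, in TRINITY_DN34549_c0_g1, which was also the most abundant of the 100.

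TRINITY_DN30463_c0_g3 had the lowest CV of all genes at the floor, 4.17%, at a mean of 134 CPM. It was at 135, 138 and 131 CPM in *T. chinensis* water deficit libraries and 127 and 138 CPM in their controls. The *T. ramosissima* values were 142, 139 and 129 CPM under water deficit and 135, 138 and 124 CPM in controls. The groups overlapped in both species, and its highest and lowest libraries were both of *T. ramosissima*.

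TRINITY_DN26122_c0_g1 was second, with a CV of 4.55% that was 1.03 times its counting error. Its levels were 44.0, 39.7 and 38.1 CPM under water deficit and 43.0 and 39.5 CPM in controls of *T. chinensis*, and 42.8, 43.0 and 42.4 CPM under water deficit and 39.8, 40.9 and 41.8 CPM in controls of *T. ramosissima*. The 3 *T. ramosissima* water deficit values lay close together and just above every control of that species. TRINITY_DN36165_c0_g1 was at place 3 (CV 4.63%, mean 176 CPM). It was at 167, 170.4 and 169 CPM under water deficit and 167 and 180.1 CPM in controls of *T. chinensis*, and at 178, 192 and 176 CPM under water deficit and 169.9, 183 and 183 CPM in controls of *T. ramosissima*. Under water deficit all *T. chinensis* libraries of this gene were below all *T. ramosissima* libraries.

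The ends of the range of levels looked different from the genes with the lowest CV. TRINITY_DN34549_c0_g1, the most abundant, was at 441, 447 and 422 CPM in *T. chinensis* water deficit libraries and 407 and 414 CPM in their controls. In *T. ramosissima* the same gene was at 356, 381 and 376 CPM under water deficit and 374, 422 and 403 CPM in controls. Its *T. chinensis* water deficit libraries were the highest of all groups, and 77.8% of its variance lay between the 4 groups. TRINITY_DN36336_c0_g1, the least abundant of the 100 at a mean of 23.0 CPM, was at 20.3, 21.2 and 21.2 CPM under water deficit and 24.3 and 23.1 CPM in controls of *T. chinensis*. The *T. ramosissima* values were 23.4, 24.0 and 24.0 CPM under water deficit and 21.8, 25.2 and 24.7 CPM in controls, so the *T. chinensis* water deficit libraries were the lowest group.

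How the remaining variation fell over the libraries was then examined. The 4 groups accounted for a median of 31.3% of a gene's variance, where they hold 30% of the degrees of freedom, and for a median of 57.6% over all genes at the floor. In 21 of the 100 genes the share was above 50%, against 59.7% of all genes at the floor. The lowest share was 3.06%, in TRINITY_DN38655_c0_g3, and the highest 80.5%, in TRINITY_DN37122_c1_g1. The mean CV within groups was a median of 6.09%, against 14.1% over all genes at the floor, and the CV of the 4 group means was 4.49%, against 18.1%. Both parts of the variation entered the choice.

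The libraries did not share the extremes evenly. *T. ramosissima* control replicate 1 was the lowest library for 31 of the 100 genes, and the median of the 100 was at 0.947 of the gene's mean there. The same library was the lowest for 26.5% of all genes at the floor. *T. chinensis* water deficit replicate 2 was the highest library for 21 of the 100, with a median of 1.03, and for 18.9% of all genes at the floor. *T. chinensis* control replicate 1 was the lowest library for none of the 100 genes and for 2.22% of all genes at the floor.

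**Figure D2:**
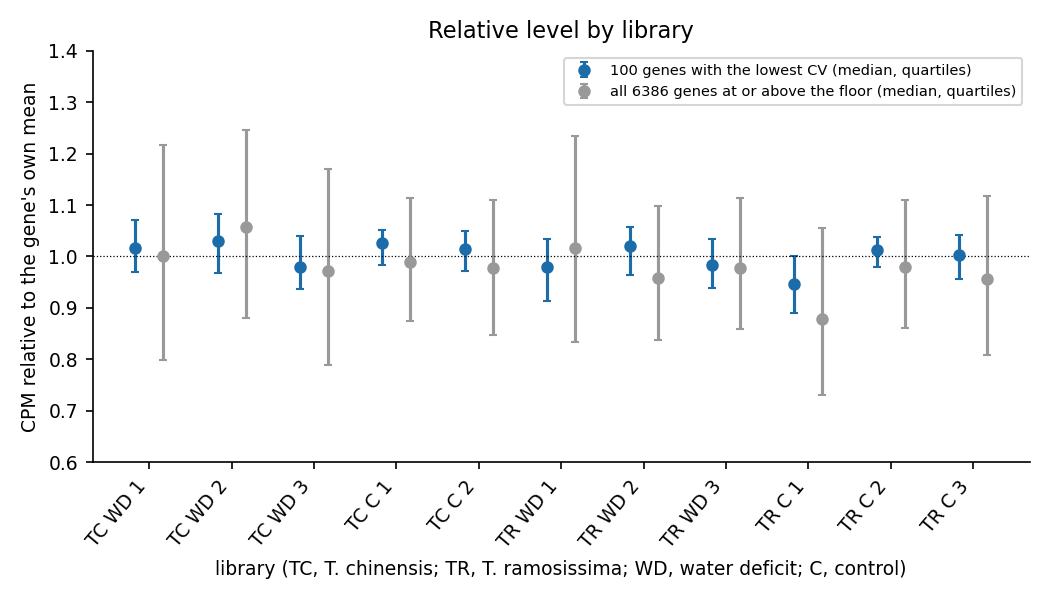
CPM relative to the gene's own mean over 11 libraries (vertical axis) in each library (horizontal axis; TC, *T. chinensis*; TR, *T. ramosissima*; WD, water deficit; C, control). Points are medians and bars run over the quartiles of the 100 genes with the lowest CV (blue) and of all 6386 genes at the floor (grey); the blue medians stay between 0.947 and 1.03, and TR C 1 is the lowest library in both colours.

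Water deficit was the first comparison. The mean CPM under water deficit over that in controls, on the log2 scale, ran between -0.25 and 0.24 for the 100 genes within *T. chinensis* and between -0.23 and 0.21 within *T. ramosissima*. Its median absolute size was 0.065 and 0.057 in these species, against 0.38 and 0.28 over all genes at the floor. In *T. chinensis* 47 of the 100 were higher and 53 lower by the mean, and in *T. ramosissima* 52 were higher and 48 lower.

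At an adjusted p of at most 0.05 (edgeR quasi-likelihood test, Benjamini-Hochberg over all genes tested), 0 of the 100 genes were called under water deficit in *T. chinensis*, where 18.6% of 28210 genes were called, and 0 in *T. ramosissima*, where 4.05% of 29025 genes were called. At the stricter limits of 0.005 for the adjusted p and 1 for the absolute log2 fold change, 0 of the 100 were called, against 0.347% of all genes for *T. chinensis* and 0% for *T. ramosissima*. These shares depend on the tool: DESeq2 called 14.0% and 5.27% of all genes at the same limits and the exact test of edgeR 14.4% and 4.66%, with 0 of the 100 in each. Between the species 0 of the 100 were called in controls (0.00709% of all genes), 0 under water deficit (3.99%) and 0 in the interaction of species and treatment (0.0639%). None of the 100 had an unadjusted p under 0.05 in any of the 64 fits run, DESeq2 and edgeR's exact test among them, and the smallest adjusted p was 0.174. The genes were chosen for low variation in these same libraries, so nothing is read from these zeros.

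In some of the 100 genes the groups did not overlap. With 2 or 3 libraries in a group this can also occur with no shift, and it was not tested. In *T. chinensis* 23 of the 100 genes had every water deficit library above (9) or below (14) every control library, against 60.5% of all genes at the floor. For *T. ramosissima* it was 13 genes (6 above, 7 below), against 33.6%. Between *T. chinensis* and *T. ramosissima* 19 genes did not overlap in controls (14 above, 5 below), against 23.2%, and 15 under water deficit (8 above, 7 below), against 28.3%. The control comparison holds 2 against 3 libraries, as does water deficit in *T. chinensis*, and the other comparisons hold 3 against 3. The rule used these contrasts, so the shares are a description.

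The most positive and the most negative fitted change under water deficit within each species belonged to TRINITY_DN29840_c0_g1 and TRINITY_DN28735_c0_g1 in *T. chinensis* and to TRINITY_DN24681_c0_g1 and TRINITY_DN37122_c1_g1 in *T. ramosissima*. TRINITY_DN29840_c0_g1 was at 58.7, 59.1 and 55.0 CPM in *T. chinensis* water deficit libraries, against 52.1 and 45.1 CPM in their controls, and the groups did not overlap. Its log2 fold change was 0.27 (SE 0.14, adjusted p = 0.223, edgeR quasi-likelihood test). Its *T. ramosissima* levels were 50.3, 52.5 and 55.0 CPM under water deficit and 49.3, 52.4 and 47.9 CPM in controls, which overlapped.

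TRINITY_DN28735_c0_g1 was at 103, 117 and 111 CPM in *T. chinensis* water deficit libraries, against 127 and 135 CPM in their controls. All 3 water deficit libraries were below both controls, with a log2 fold change of -0.23 (SE 0.16, adjusted p = 0.336, edgeR quasi-likelihood test). With 1 library left out it was between -0.34 (without *T. chinensis* control replicate 1) and -0.16. The *T. ramosissima* levels were 124, 120.3 and 119 CPM under water deficit and 119.9, 129 and 129 CPM in controls, which overlapped.

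TRINITY_DN37122_c1_g1 was the only gene of the 100 below its controls in every water deficit library of both species, where 9.49% of all genes at the floor were. It was at 55.2, 55.7 and 53.7 CPM in *T. ramosissima* water deficit libraries, against 66.3, 62.2 and 63.9 CPM in their controls (log2 fold change -0.24, SE 0.20, adjusted p = 0.532, edgeR quasi-likelihood test). The fold change was -0.09 on the log2 scale without *T. ramosissima* control replicate 1, and between -0.34 and -0.20 without any other library. Leaving out that control also moved the median fitted change of all 100 genes, from -0.0007 to 0.105. In *T. chinensis* it was at 61.0, 63.0 and 55.7 CPM under water deficit and 63.7 and 66.6 CPM in controls. None of the 100 was above its controls in every library of both species, where 13.4% of all genes at the floor were.

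TRINITY_DN24681_c0_g1 was the only gene of the 100 whose groups separated in opposite directions in the species, where 1.24% of all genes at the floor did. It was at 28.0, 26.6 and 29.0 CPM in *T. ramosissima* water deficit libraries, against 22.4, 24.7 and 25.2 CPM in their controls (log2 fold change 0.20, SE 0.17, adjusted p = 0.570, edgeR quasi-likelihood test). In *T. chinensis* it was at 22.5, 24.9 and 24.8 CPM under water deficit and 24.9 and 27.0 CPM in controls, and the nearest pair of these differed by less than the last digit given. The separation in *T. chinensis* therefore rests on a difference far below the counting error of 5.64%.

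Because the choice used all libraries, low variation among them is no measure of how the genes behave in another plant. The choice was therefore repeated 11 times, each time in 10 libraries, and the 100 genes chosen were measured in the library left out. Their median absolute log2 deviation from the mean of the other 10 libraries was between 0.061 and 0.21, with a median over libraries of 0.11. The same measure over all genes at the floor was between 0.19 and 0.34, with a median of 0.26, and the chosen genes deviated less in 11 of 11 libraries. Between 32 and 82 of the 100 were within 10% of the mean of the other libraries (as a ratio, either way), against 21.2% to 37.3% of all genes at the floor.

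The left-out libraries were not alike. *T. ramosissima* control replicate 1 gave the largest deviation (0.21, with 32 of 100 genes within 10%), followed by *T. ramosissima* water deficit replicate 1 (0.20, with 33 genes) and *T. chinensis* water deficit replicate 2 (0.16, with 46 genes). *T. ramosissima* control replicate 2 gave the smallest (0.061, with 82 genes). In *T. ramosissima* control replicate 1 the chosen genes were at a median log2 of -0.19 and all genes at the floor at -0.22, beside its TMM factor of 0.831. This order depended on the processing. With TMM factors *T. ramosissima* water deficit replicate 1 gave the largest deviation (0.23, with 28 genes within 10%). *T. ramosissima* control replicate 1 then gave 0.17 (34 genes), and its chosen genes were at a median log2 of 0.11. With a floor of 50 CPM the deviations of these libraries were 0.22 and 0.20. The part of that library's scaling in the deviation on CPM was not tested.

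**Figure D3:**
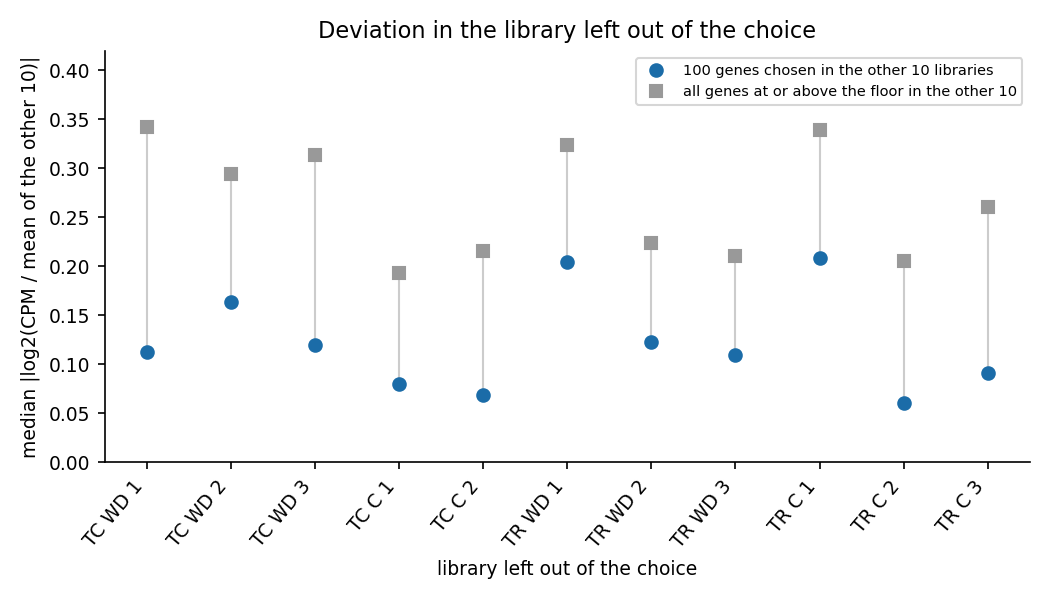
Median absolute log2 of the CPM in a library over the mean of the other 10 libraries (vertical axis), for the library left out of the choice (horizontal axis; TC, *T. chinensis*; TR, *T. ramosissima*; WD, water deficit; C, control). Blue circles are the 100 genes chosen in the other 10 libraries and grey squares all genes at or above the floor there; the circle is below the square in 11 of 11 libraries, and it is highest in TR C 1 and TR WD 1.

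The choice was also made in 1 species and measured in the other. The 100 genes with the lowest CV over the 5 *T. chinensis* libraries had a median CV of 13.4% over the 6 *T. ramosissima* libraries, against 21.5% over all genes at the same floor, and 85 of them were below that median. The 100 chosen over the *T. ramosissima* libraries had a median CV of 13.3% in *T. chinensis*, against 22.3%, and 86 were below that median. Single genes departed from this: the CV in the species not used reached 49.0% in *T. ramosissima* and 48.8% in *T. chinensis*. The lists of the species had 6 genes in common, which is 6% of each, and shared 25 and 27 genes with the list made over both species. With TMM factors they had 2 genes in common and shared 17 and 6 with that list, and with a floor of 50 CPM they had 13 in common and shared 26 and 31. In the species where they were chosen, their CV was at most 4.79% in *T. chinensis* and 6.05% in *T. ramosissima*, so the median CV in the species not used was above every value that entered the choice.

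Which genes were among the 100 depended on how libraries were scaled. With TMM factors (a scaling by the bulk of genes in place of the library total) 30 of the 100 genes were again among the 100 lowest, and 32 were with median-ratio size factors. With TPM, which also divides by transcript length, and a floor of 20 TPM it was 40. Some of the 100 fell below that floor, among them TRINITY_DN36336_c0_g1 with a CV of 6.32% on TPM. The number on TPM therefore depended on the floor as well as on the scale. The CV of the 100 genes was a median of 9.54% with TMM factors (range 3.38% to 15.4%) and 9.10% on TPM (range 5.37% to 17.7%), against medians of 23.2% and 24.4% over all genes at the floor. By rank with TMM factors they stood at a median place of 188.5, with 80 among the 500 lowest and the last at place 1297. The scaling was applied to the same counts that chose the genes, so a low CV on these scales was largely set by the choice and is a description.

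**Figure D4:**
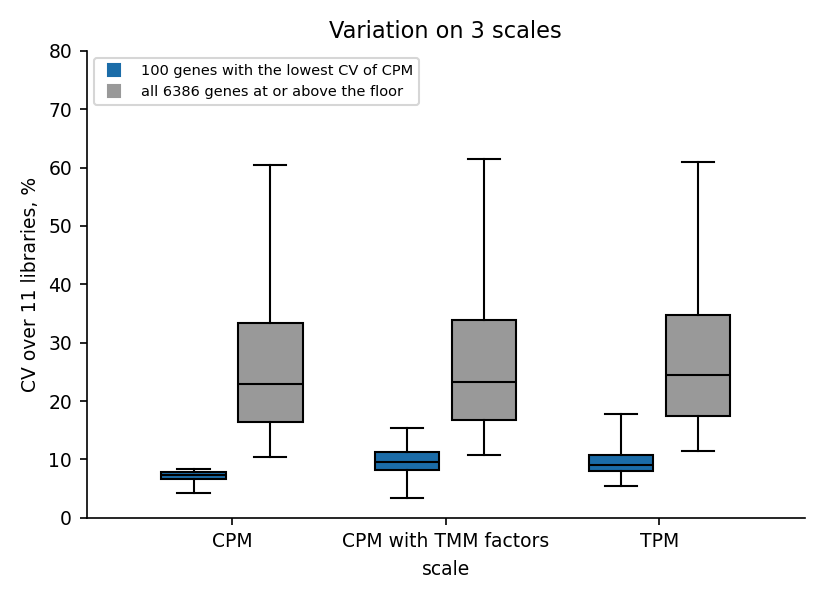
CV over 11 libraries (vertical axis, %) on CPM, CPM with TMM factors and TPM (horizontal axis), for the 100 genes with the lowest CV of CPM (blue; box, quartiles; line, median; whiskers, lowest and highest) and all 6386 genes at the floor (grey; whiskers, 5th and 95th percentile). The blue medians are 7.42%, 9.54% and 9.10%, all below the grey lower quartiles.

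On CPM, TMM and median-ratio scaling together 28 genes were among the 100 lowest, and 7 were on TPM with its floor as well. The 7 were TRINITY_DN37646_c1_g1, TRINITY_DN28415_c1_g1, TRINITY_DN27385_c0_g1, TRINITY_DN25523_c0_g1, TRINITY_DN26270_c0_g1, TRINITY_DN24038_c0_g1 and TRINITY_DN36253_c2_g2, which were named after their values were seen. TRINITY_DN37646_c1_g1, with a CV of 5.28% on CPM, 8.23% with TMM factors and 7.39% on TPM, was at 133, 133 and 133 CPM under water deficit and 135 and 132 CPM in controls of *T. chinensis*. In *T. ramosissima* the same gene was at 131, 132 and 113 CPM under water deficit and 119, 129 and 134 CPM in controls, so its spread came from a water deficit library and a control library of that species.

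TRINITY_DN36253_c2_g2 changed place most among the 7 between CPM and TMM scaling. It was at place 96 on CPM and at place 3 with TMM factors, with a CV of 8.31% and 5.85%. It was at 58.0, 56.0 and 57.0 CPM under water deficit and 60.2 and 63.9 CPM in controls of *T. chinensis*, and at 63.1, 57.6 and 56.0 CPM under water deficit and 46.6, 63.3 and 57.5 CPM in controls of *T. ramosissima*. The lowest value, 46.6 CPM, was in *T. ramosissima* control replicate 1, the library with the lowest TMM factor.

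A readout that the choice did not use was the effective length of a gene. The deposited count divided by the deposited TPM is, up to a constant per library, the length that RSEM gave the gene. It is averaged over the gene's contigs by their abundance, and so moves when the mix of contigs (isoforms, or versions from either species) changes. It may also carry differences in fragment length between libraries, and these sources were not told apart. Libraries were centred at the median gene, and log2 values were tested with limma over the 6386 genes at the floor. The length of the 100 genes was a median of 1.14 times that of the median gene (range 0.27 to 2.93). Its SD over libraries, on the log2 scale, was a median of 0.057, against 0.059 over all genes at the floor. The upper quartile was 0.092, against 0.12, and the highest value 0.28, against 0.95.

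Under water deficit the effective length was called for 0 of the 100 genes of *T. chinensis* (0.11% of all genes) and for 0 of *T. ramosissima* (0%), at an adjusted p of at most 0.05 and a log2 difference of 0.25 or more in either direction. With no limit on size it was again 0, against 0.172% and 0% of all genes. At an unadjusted p under 0.05 it was 9 genes for *T. chinensis*, against 6.08% of all genes, and 10 for *T. ramosissima*, against 7.38%. The median absolute log2 difference was 0.027 and 0.028 in these species, against 0.026 and 0.027 over all genes tested. In *T. chinensis* 31 of the 100 had lengths that did not overlap between water deficit and control (21 longer, 10 shorter), against 22.8% of all genes, and in *T. ramosissima* 8 (2 longer, 6 shorter), against 11.3%.

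Between the species the lengths stood further apart. In controls 50 of the 100 genes did not overlap (7 longer and 43 shorter in *T. chinensis*), against 43.4% of all genes at the floor, where the split was likewise 534 longer and 2236 shorter. Over all libraries 16 did not overlap, all 16 shorter in the 5 *T. chinensis* libraries than in the 6 *T. ramosissima* libraries, against 20.3% of all genes (136 longer, 1162 shorter). In controls 0 of the 100 were called by limma at either limit (0.0313% of all genes), with 21 at an unadjusted p under 0.05 (23.5% of all genes).

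Over both treatments, a contrast added after the data were seen, 0 of the 100 were called with a log2 difference of at least 0.25 (3.88% of all genes) and 22 with no limit on size (25.7%). Of these 22, 21 were shorter and 1 longer in *T. chinensis*, with a median log2 difference of -0.026. The share near that of all genes says nothing particular to the 100. The number was 1 without either *T. chinensis* control replicate 1 or 2, 2 without *T. ramosissima* control replicate 2 or 3, and 3 and 4 without *T. ramosissima* water deficit replicate 1 and 2.

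The largest of these length differences was in TRINITY_DN30463_c0_g3, the gene with the lowest CV. Its length was 87.5%, 91.8% and 89.5% of its own mean under water deficit and 89.2% and 97.3% in controls of *T. chinensis*. The *T. ramosissima* lengths were 106.0%, 112.2% and 100.6% under water deficit and 107.4%, 110.8% and 112.5% in controls. All *T. chinensis* libraries were below all *T. ramosissima* libraries (log2 difference -0.24, SE 0.035, adjusted p = 0.0164, limma). The CPM of this gene overlapped between the species while its effective length did not, and its CV was 4.17% on CPM and 11.6% on TPM.

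TRINITY_DN28418_c0_g2, named after its values were seen, had the most variable length of the 100, with an SD of 0.28 on the log2 scale. Its length was 136.2%, 91.1% and 94.2% of its mean under water deficit and 135.0% and 107.2% in controls of *T. chinensis*, and 88.8%, 95.1% and 68.7% under water deficit and 109.4%, 94.6% and 98.5% in controls of *T. ramosissima*. The groups overlapped in every comparison, and its CV was 7.57% on CPM and 15.1% on TPM. In all, 7 of the 100 genes had a CV of TPM above 15%, against 85.1% of all genes at the floor, and 34 had a CV of TPM no higher than 8.35%.

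The assembly grouped contigs of like sequence into clusters, named by the first parts of the identifier, which can hold several genes (the last part). Of the 100 genes 24 were alone in their cluster, against 31.9% of all genes at the floor, and the largest cluster held 7 genes. For 26 of the 100, against 29.2% of all genes at the floor, the cluster held another gene with a mean of at least 5 CPM, 30 such neighbours in all. The median CV of a gene's neighbours was itself a median of 17.1% over the 26 genes, against 29.2% over all genes at the floor with such neighbours. When all genes of a cluster were summed, the CV was a median of 8.12% for the 26, against 22.1%. It was higher than the CV of the gene alone in 17 of 26, against 578 of 1866 genes at the floor. The sum includes the chosen gene, a median of 63.0% of the cluster, so its low CV was largely set by the choice. The 17 of 26 also depends on the choice, which took genes for a low CV of their own. The neighbours include TRINITY_DN31023_c0_g3 and TRINITY_DN31023_c0_g1, which are themselves among the 100. Of the 30 neighbours 4 differed at least 2-fold under water deficit in either species (13.3%, against 26.1% of the neighbours of all genes at the floor) and 2 between species (6.67%, against 6.30%). Since RSEM shares out fragments that fit several contigs, the division of counts within a cluster is uncertain.

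One cluster held 2 of the 100 genes. TRINITY_DN31023_c0_g3 was at 65.6, 76.8 and 75.1 CPM under water deficit and 62.8 and 71.1 CPM in controls of *T. chinensis*, and at 63.1, 71.7 and 71.8 CPM under water deficit and 61.2, 67.5 and 70.0 CPM in controls of *T. ramosissima*. TRINITY_DN31023_c0_g1 was at 40.0, 41.4 and 43.2 CPM under water deficit and 38.7 and 43.9 CPM in controls of *T. chinensis*, and at 43.0, 44.7 and 45.0 CPM under water deficit and 34.5, 42.7 and 38.5 CPM in controls of *T. ramosissima*. The CVs were 7.50% and 7.71%, and that of the summed cluster was 6.76%. Both genes were lowest in *T. ramosissima* control replicate 1.

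In another cluster a steady gene stood beside a variable one. TRINITY_DN30373_c1_g1 (CV 7.69%), chosen for display after its values were seen, was at 33.6, 30.6 and 35.4 CPM under water deficit and 33.0 and 30.7 CPM in controls of *T. chinensis*. The *T. ramosissima* levels were 35.5, 38.1 and 32.7 CPM under water deficit and 30.3, 33.5 and 30.4 CPM in controls. Its groups overlapped in both species.

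Its neighbour TRINITY_DN30373_c1_g2, which is not one of the 100, had a CV of 112%. It was at 0.390, 1.38 and 31.3 CPM in *T. chinensis* water deficit libraries, against 146 and 136 CPM in their controls. The *T. ramosissima* levels were 6.97, 6.68 and 0.923 CPM under water deficit, against 246, 132 and 116 CPM in controls. Every water deficit library was below every control library, with replicate 3 of *T. chinensis* nearest to them. The log2 fold change was -3.62 in *T. chinensis* (SE 1.47, adjusted p = 0.137, edgeR quasi-likelihood test) and -5.14 in *T. ramosissima* (SE 0.79, adjusted p = 0.0221), so the neighbour fell in *T. ramosissima* by the test and missed the threshold in *T. chinensis*. The size of the adjusted p depended on the tool. In *T. ramosissima* it was 4.8e-12 by DESeq2 and 1.0e-07 by edgeR's exact test. In *T. chinensis* these tests gave 0.148 and 0.0635. Without the filter, the edgeR quasi-likelihood test gave 3.0e-45 in *T. ramosissima* and 1.8e-39 in *T. chinensis*. With the filter, the call in *T. ramosissima* was lost without control replicate 1, 2 or 3 (adjusted p = 0.0653, 0.0534 and 0.0658, edgeR quasi-likelihood test). In *T. chinensis* the log2 fold change was -7.24 without water deficit replicate 3, with an adjusted p of 0.0130 by the same test. The steady gene had a log2 fold change of 0.09 (SE 0.17, adjusted p = 0.737) and 0.17 (SE 0.19, adjusted p = 0.678) in these species, and the summed cluster had a CV of 75.8%.

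**Figure D5:**
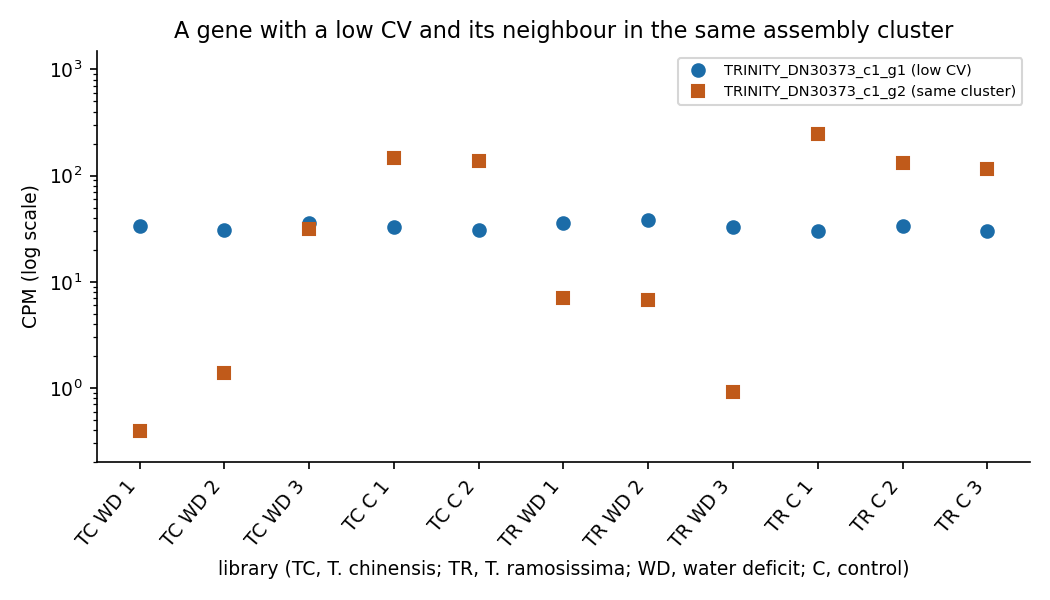
CPM (vertical axis, log scale) in each library (horizontal axis; TC, *T. chinensis*; TR, *T. ramosissima*; WD, water deficit; C, control) of TRINITY_DN30373_c1_g1 (blue circles) and its neighbour TRINITY_DN30373_c1_g2 (orange squares) from the same assembly cluster. The circles stay between 30.3 and 38.1 CPM, while the squares lie at or below 31.3 CPM under water deficit and at or above 116 CPM in controls.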

How the data were processed

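Leaf RNA of 11 plants was sequenced as read pairs. The authors built a joint Trinity assembly of the 2 species, to which the reads were aligned by Bowtie, and RSEM gave the abundance of each gene. As deposited, the values are unnormalized expected counts (estimated fragments) and the TPM that RSEM derives from them. For RSEM, no version is given in the sources used here. RSEM shares out fragments that fit several contigs, so counts of like genes are uncertain. Of the counts of a library, 3.11% to 4.00% were not whole numbers.

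The 100 genes, the comparisons and the alternatives were chosen with earlier results of these data known. CPM used the library totals as deposited, of 10245008 to 15655257 fragments. At the lowest gene mean of 284 fragments the counting error is 5.93%, which covers counting only. Rounded counts were compared with edgeR 4.0.16 in R 4.3.3 (TMM factors, quasi-likelihood test, genes past 1 CPM in 2 or more of the libraries compared, Benjamini-Hochberg), within the groups compared, and over all 4 groups for the interaction. DESeq2 1.42.0 and edgeR's exact test were alternatives. The log2 of count over TPM was tested with limma 3.58.1. The fits were tested on simulated data. Other alternatives were the scaling, the floor, the filter, the measure of variation, a replicate block and each library left out. The replicates are single plants.

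The named genes are the 3 with the lowest CV, the highest and lowest by mean CPM, the last taken and first not taken, and the largest positive and negative fold change of water deficit in each species. Others are named as chosen after their values were seen. Cell type markers, functions and sequences were not used here, because the tables analysed hold no gene names; the study's supplementary tables were not used here.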

Additional observations from a re-analysis of the deposited data

Results flagged for a closer look

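TRINITY_DN24681_c0_g1 had a log2 fold change of water deficit over control that was -0.24 in *T. chinensis* relative to *T. ramosissima*. It was singled out because every *T. chinensis* water deficit library was below its controls and every *T. ramosissima* water deficit library above its controls. Groups separated in opposite directions, in either order, in 1.24% of all genes at the floor. The nearest *T. chinensis* libraries differed by less than the last digit given, far below the counting error. The difference itself did not pass (interaction, SE 0.23, adjusted p = 0.774, edgeR quasi-likelihood test). The levels were 22.5, 24.9 and 24.8 CPM under water deficit and 24.9 and 27.0 CPM in controls of *T. chinensis*, and 28.0, 26.6 and 29.0 CPM under water deficit and 22.4, 24.7 and 25.2 CPM in controls of *T. ramosissima*.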

How the results depend on the processing

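Of the 100 genes, 30 were again among the 100 lowest with TMM factors, 32 with median-ratio size factors and 40 on TPM with a floor of 20 TPM. It was 53 with a floor of 50 CPM, 31 by the CV over the 4 group means and 27 by the mean CV within groups. It was 95 with a floor of 10 CPM, 94 with no floor and 93 by the SD of log2(CPM + 1). With 1 library left out it was 63 to 90, lowest without *T. ramosissima* water deficit replicate 1. The CV of the last gene was 8.35%, against 3.41% over group means and 5.26% within groups, which are other measures, and 7.50% to 8.45% with 1 library left out.

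In libraries left out of the choice the median deviation was 0.11, against 0.13 with TMM factors and 0.12 with a floor of 50 CPM. The CV in the species not used was 15.2% and 12.3% with TMM factors and 12.9% and 12.1% with that floor.

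The effective length differed between species over both treatments in 0 of the 100 genes (3.88% of all genes). It differed in 6 with a limit of 0.1 on the log2 scale (7.52%) and in 22 with no limit on size (25.7%). With 1 library left out and the limit of 0.25 it was 0 to 2. It was 1 without *T. chinensis* control replicate 2, 2 without *T. chinensis* water deficit replicate 2, 2 without *T. ramosissima* control replicate 1, and also 1 when replicate 3 of *T. ramosissima* water deficit was left out. With the trend of length removed 19 were called at any size (25.3% of all genes), 18 of them among the 22. The cause was not tested.

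Over all genes the calls at an adjusted p of 0.05 moved far more. Water deficit called 5254 genes in *T. chinensis* (7570 by DESeq2, 7194 by the exact test, 8665 unfiltered, 0 to 7792 with 1 library left out) and 1175 in *T. ramosissima* (3350, 2849, 4152 and 0 to 1172 in the same order). Between species it was 2 in controls (366, 360, 1538 and 0 to 9) and 1152 under water deficit (4081, 3742, 5830 and 0 to 2749). The interaction called 20 (893 by DESeq2, 1793 unfiltered, 2 to 849 with 1 library left out). None of these fits called any of the 100 genes.

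With the replicate block 1961 genes were called in *T. chinensis* and 0 in *T. ramosissima*, 0 of the 100 among them. TRINITY_DN30373_c1_g2 then had an adjusted p of 0.0294 in *T. chinensis* and 0.0692 in *T. ramosissima* (edgeR). With the block, 1 of the 100 differed in length between species at any size, against 0.861% of all genes. Whether the numbers pair plants is not known. Deviations of same-numbered libraries correlated at 0.11 and 0.15 (*T. chinensis*) and at -0.19, -0.28 and 0.18 (*T. ramosissima*), which cannot settle it with 2 or 3 libraries in a group. For 12 of the 100 genes the CV was under 1.5 times the counting error, so their order among the 100 is limited by depth.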
